A study of Homo sapiens with 3 samples.

Results

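The neutrophil-attracting CXC chemokines are described here across 3 arrays of A498 cells. The members were the 6 genes CXCL1, CXCL2, CXCL3, CXCL5, CXCL6 and CXCL8, chosen by symbol from the platform annotation, of 18239 genes with a probe set that names 1 gene. They had 13 such probe sets, 3 each for CXCL5 and CXCL8, 2 each for CXCL1, CXCL2 and CXCL3, and 1 for CXCL6. Messenger RNA had been measured once in each of 3 cultures of A498, a line of human kidney carcinoma epithelium without functional VHL. The first received E. coli 83972, which can live in the human bladder without causing symptoms. The second received DRB (60 µM), a nucleoside analogue that inhibits the kinase CDK9 and stops productive elongation by polymerase II. The third, the control, received 0.08% DMSO. All were confluent layers in serum-free medium with gentamicin, and RNA was taken at 4 h. The labels name DMSO for the control array and for no other, so an effect of DMSO and that of each treatment cannot be told apart. They give 2 different bacterial concentrations, so none is printed. With 1 array a group there was no replicate, no difference could be tested and no p-value was computed. The number of arrays limits the precision throughout.

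The CXC chemokines that attract neutrophils carry the residues glutamate, leucine and arginine (the ELR motif) ahead of their first cysteine. They are ligands of CXCR2, and CXCL6 and CXCL8 also of CXCR1, receptors that neutrophils carry on their surface. Epithelial cells of the urinary tract secrete them when they sense bacteria, and the gradient guides neutrophils across the epithelium into the urine. Their transcription is driven by NF-κB, with AP-1 and C/EBP factors, and their short-lived messages contain AU-rich elements that ZFP36 and related proteins mark for decay.

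The genes of all 6 members lie in a single cluster on chromosome 4, and the sequences just upstream of them are shown because all share the same NF-κB run, whether or not the gene reached a measurable level. In RefSeq's promoter windows (GRCh38.p14, 250 bases before to 50 after each annotated start), which were found for 6 of 6 members, the run GGAATTTCC occurred in every member. It occurred in 162 of 35097 windows of all genes, or 0.462%, when both strands were searched, 156 of them outside the members. The run was searched for after it was seen in windows of the members, so its presence in all 6 is a description and not a test. Each stretch is written 5′ to 3′ on the strand of its gene, with the run in capitals and 25 bases on either side.
CXCL1 (chr4:73869290-73869348, plus strand): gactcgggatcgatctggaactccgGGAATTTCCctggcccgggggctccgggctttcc
CXCL2 (chr4:74099239-74099297, minus strand): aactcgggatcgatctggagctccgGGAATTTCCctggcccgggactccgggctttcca
CXCL3 (chr4:74038734-74038792, minus strand): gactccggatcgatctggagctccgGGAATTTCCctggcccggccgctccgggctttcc
CXCL8 (chr4:73740453-73740511, plus strand): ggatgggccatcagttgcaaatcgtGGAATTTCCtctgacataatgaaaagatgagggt
CXCL5 (chr4:73998734-73998792, minus strand): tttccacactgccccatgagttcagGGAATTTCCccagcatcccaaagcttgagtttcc
CXCL6 (chr4:73836564-73836622, plus strand): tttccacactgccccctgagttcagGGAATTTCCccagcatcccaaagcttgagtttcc

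The run started at −78 in CXCL1 and CXCL3, −77 in CXCL2, −91 in CXCL8, −90 in CXCL5 and −89 in CXCL6, counted from the annotated start, so its distance from the start was much alike among members. The NF-κB consensus, which allows more variants, overlapped the run in 5 of 6 members (CXCL8 being the exception) and was present in 11.3% of all windows. The AP-1 motif TGANTCA was found in CXCL8 (7.71% of all windows), the TATA box letters TATAAA in CXCL8 (11.5%), and the C/EBP motif TTGCNNAA in CXCL2 (10.5%), each in 1 of 6 members. Only these exact letters were matched, so close variants were not counted, and the absence of a match does not show that a member lacks such a site. Over the 250 bases before the start, pairs of members were aligned (15 pairs). CXCL5 and CXCL6 were identical at 85.3% of aligned columns, CXCL1 and CXCL3 at 81.4%, CXCL2 and CXCL3 at 73.3% and CXCL1 and CXCL2 at 67.9%. CXCL8 was identical to the others at 39.1% to 42.8%. The full 250 bases are given for 2 members that were high on the E. coli 83972 array and, for contrast, 1 that was not, with matches of the run and of the AP-1, TATA and C/EBP motifs in capitals.
CXCL2 (chr4:74099196-74099445, minus strand): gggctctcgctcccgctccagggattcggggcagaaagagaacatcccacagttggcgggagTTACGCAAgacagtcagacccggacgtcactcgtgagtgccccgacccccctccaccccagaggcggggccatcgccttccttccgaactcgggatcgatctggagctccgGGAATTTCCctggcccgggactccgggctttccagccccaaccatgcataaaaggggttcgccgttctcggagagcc
CXCL8 (chr4:73740319-73740568, plus strand): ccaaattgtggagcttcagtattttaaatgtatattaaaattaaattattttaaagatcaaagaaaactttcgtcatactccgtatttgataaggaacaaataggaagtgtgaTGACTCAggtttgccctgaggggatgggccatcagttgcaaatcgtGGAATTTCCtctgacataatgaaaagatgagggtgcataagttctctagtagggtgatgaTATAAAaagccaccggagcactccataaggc
CXCL5 (chr4:73998678-73998927, minus strand): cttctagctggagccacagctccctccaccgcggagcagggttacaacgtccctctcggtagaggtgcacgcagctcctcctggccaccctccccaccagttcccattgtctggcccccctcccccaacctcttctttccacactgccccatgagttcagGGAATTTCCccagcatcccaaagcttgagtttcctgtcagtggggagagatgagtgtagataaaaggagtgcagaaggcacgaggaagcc

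**Figure D1:**
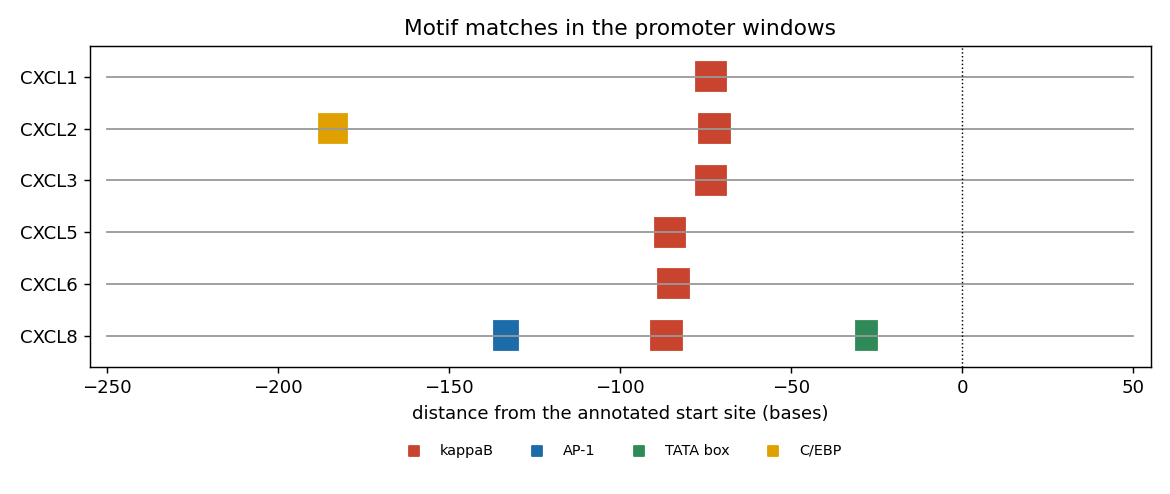
Map of the promoter windows of the 6 members. The horizontal axis is the distance from the annotated start site in bases, and coloured blocks mark matches on either strand of the kappaB run, the AP-1 and C/EBP motifs and the TATA box letters. The kappaB run lies between −91 and −69 in all 6 windows, while exact matches of the other motifs appear in CXCL8 or CXCL2.

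Values are the deposited log2 probe-set values, and a level of 4.88, the median of all values on the 3 arrays, served as the filter on dim signal. Of 18239 genes 11653 reached it on at least 1 array with their brightest probe set, as did 4 of the 6 members. The array medians ranged from 4.87 to 4.90, and Pearson's r over all probe sets was 0.990 between E. coli 83972 and control and 0.977 between DRB and control. Of 8 kidney epithelial and renal carcinoma markers measured, 7 reached the filter level, among them PAX8, KRT8, CDH2 and CDH6, and EPCAM did not. Of 7 leukocyte markers 2 reached it, CD68 and CD3E, while PTPRC, ITGAM, LYZ, S100A8 and FCGR3B were below it on every array. The leukocyte markers differed from control by −0.26 to 0.08 with E. coli 83972 and by 0.04 to 0.32 with DRB. Of 5 endothelial markers 2 reached the level and of 5 fibroblast markers 1 did, and none of either list was 2-fold different in either comparison.

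For E. coli 83972 against control, the question was how the host cell responds to contact with the bacterium. CXCL1, CXCL2, CXCL3 and CXCL8 were all higher with E. coli 83972, and CXCL5 and CXCL6 remained at the bottom of the signal range on every array. By the brightest probe set, 4 of 6 members passed 2-fold upward and 0 downward, where the background over all kept genes was 1.91% higher (222 of 11653) and 0.652% lower. All 9 probe sets of CXCL1, CXCL2, CXCL3 and CXCL8 were at least 2-fold higher, by 2.55-fold to 87.8-fold. In RNA from a whole culture, more responding cells and more message per cell cannot be told apart.

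CXCL8 encodes interleukin 8, the classic neutrophil attractant of infected epithelium. Its brightest probe set, 11718841_s_at, read 13.14 with E. coli 83972, 7.55 with DRB and 8.07 in control, so it was 33.6-fold higher with the bacterium (log2 difference 5.07). Probe set 11754026_a_at read 12.21 with E. coli 83972, 6.08 with DRB and 5.75 in control, a difference from control of 6.46 with the bacterium. Probe set 11763226_x_at read 12.15 with E. coli 83972, 6.05 with DRB and 6.12 in control, a difference from control of 6.03. All 3 were high on the E. coli 83972 array and far lower on both others. The mean difference was 5.85 ± 0.71 (SD over 3 probe sets). The brightest probe set gave the smallest difference of the 3. It had the highest control value, and its value with E. coli 83972 lay just under the highest on that array (13.20). What made the probe sets differ was not tested.

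CXCL2, known as MIP-2α, is a CXCR2 ligand that epithelial cells and macrophages make early after contact with bacteria. Probe set 11744127_at read 11.18 with E. coli 83972, 5.17 with DRB and 6.54 in control, which is 24.9-fold higher with the bacterium (4.64). Probe set 11744128_x_at read 10.98 with E. coli 83972, 4.42 with DRB and 5.68 in control, which is 39.3-fold higher with the bacterium (5.30). From high to low, the order E. coli 83972, control, DRB was the same in both, and the mean difference with the bacterium was 4.97 ± 0.46 (SD over 2 probe sets). CXCL3, known as MIP-2β, is its close relative. Probe set 11728476_a_at read 8.82 with E. coli 83972, 5.25 with DRB and 4.69 in control, 17.5-fold higher with the bacterium (4.13). Probe set 11728477_at read 9.59 with E. coli 83972, 4.18 with DRB and 4.52 in control, 33.7-fold higher with the bacterium (5.08). Both were high with E. coli 83972, and in both the control value lay under the filter level, where differences are compressed.

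CXCL1, known as GROα, is the CXCR2 ligand whose probe sets disagreed most. Probe set 11719366_s_at read 9.63 with E. coli 83972, 3.95 with DRB and 4.32 in control, 39.6-fold higher with the bacterium (5.31). Probe set 11754114_a_at read 8.16 with E. coli 83972, 7.00 with DRB and 6.82 in control, 2.55-fold higher (1.35). Both were highest with the bacterium, but by amounts that differed by 3.96 on the log2 scale, or 15.5-fold. Among 6317 genes with at least 2 probe sets at the filter level, the 2 brightest probe sets disagreed in this comparison by as much in 1 gene, CXCL1 itself. The second is the brighter over the 3 arrays and so represented CXCL1 in the counts, where it ranked 127 from the highest of 11653 differences. CXCL8 ranked 2, CXCL2 4 and CXCL3 6 by their brightest probe sets, and with other probe sets of these genes giving differences of 5.08 to 6.46 the order among the top genes is uncertain. What the brighter CXCL1 probe set detects on the control and DRB arrays was not tested. The technical spread of a difference, from the disagreement of probe sets of 1 gene over those 6317 genes, was a standard deviation of 0.18 (robust estimate 0.12), and it holds no variation between cultures. CXCL1, CXCL2 and CXCL3 have closely related transcripts, and probe sets with the suffix _s or _x may hybridize with more than 1 of them, so the division of signal among these genes is uncertain.

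CXCL5 (ENA-78) and CXCL6 (GCP-2), a related pair of ELR chemokines, did not reach the filter level on any array. The CXCL5 probe set 11728716_x_at read 3.12 with E. coli 83972, 3.21 with DRB and 2.95 in control, and the other 2 CXCL5 probe sets ranged from 2.90 to 2.96 over the 3 arrays. The CXCL6 probe set 11730801_at read 2.95 with E. coli 83972, 2.98 with DRB and 2.72 in control. The differences of these 4 probe sets with E. coli 83972 ranged from 0.03 to 0.23, and they were above control on both treated arrays. These values lie near the lowest of the arrays (2.45 to 2.54), where a change of a rare message could not have been seen. The run shown above for CXCL5 and CXCL6 is the same as that of the 4 genes that were high.

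**Figure D2:**
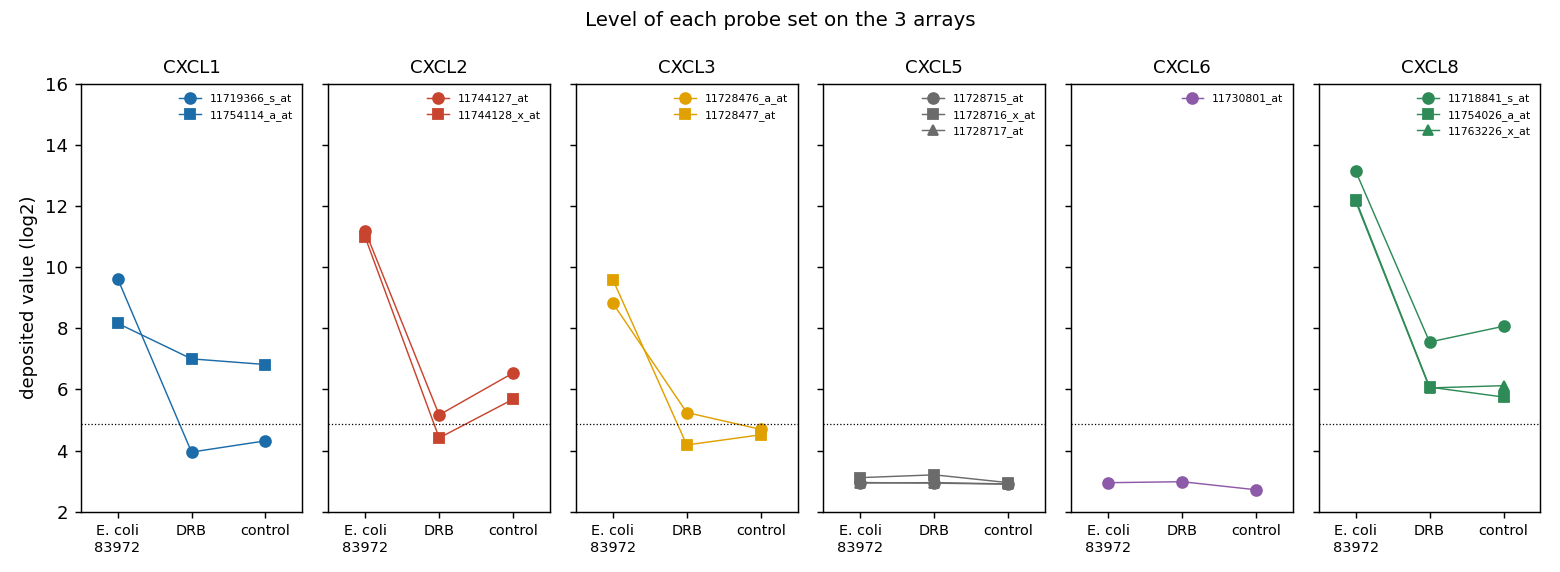
Deposited log2 value of each of the 13 probe sets (vertical axis) on the E. coli 83972, DRB and control arrays (horizontal axis), 1 panel a gene. Markers of 1 shape joined by a line are 1 probe set, and the dotted line is the filter level of 4.88. The 9 probe sets of CXCL1, CXCL2, CXCL3 and CXCL8 are highest with E. coli 83972, the CXCL1 probe sets by unequal amounts, and those of CXCL5 and CXCL6 stay between 2.72 and 3.21.

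For DRB against control, the question was which messages differ when elongation is inhibited. CXCL2 was lower in both of its probe sets, and the other members did not reach 2-fold in either direction. In control, both CXCL3 probe sets (4.69 and 4.52), CXCL1 probe set 11719366_s_at (4.32) and all those of CXCL5 and CXCL6 were under the filter level. For these a fall with DRB could hardly have been seen. By the brightest probe set, 1 of 6 members, 4 of which reached the filter level, was at least 2-fold lower and 0 higher. The background was 10.2% lower (1185 of 11653 kept genes) and 0.129% higher, and 1 gene is too few to set the members apart from it. Probe set 11744127_at of CXCL2 was 2.59-fold lower (−1.37) and 11744128_x_at 2.40-fold lower (−1.26). The first ranked 655 from the lowest of 11653 differences, and the second was under the filter level on the DRB array.

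For CXCL1, CXCL3 and CXCL8 the probe sets of 1 gene disagreed in sign. CXCL8 differed by −0.51, −0.07 and 0.33 in its 3 probe sets, with a mean of −0.09 ± 0.42 (SD). CXCL3 differed by 0.55 and −0.33, and CXCL1 by 0.19 and −0.37. None of these exceeded 2-fold, and the technical standard deviation of this comparison was 0.32 (robust estimate 0.15). Of the 13 probe sets 7 lay above 0 and 6 below. The 4 dim probe sets of CXCL5 and CXCL6 lay between 0.03 and 0.26. With centring on the poly-A spike-ins, which shifts every gene by −0.65, CXCL8 was also more than 2-fold lower (−1.17), CXCL2 was at −2.02, and CXCL1, CXCL3, CXCL5 and CXCL6 turned to −0.47, −0.10, −0.40 and −0.39. Under that centring 2 of 6 members were at least 2-fold lower, beside 24.7% of all kept genes (2880 of 11653).

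Set against each other, the E. coli 83972 array was above the DRB array in all 9 probe sets of the same 4 genes. E. coli 83972 exceeded DRB by 6.01 and 6.56 for CXCL2, by 5.59, 6.13 and 6.10 for CXCL8, by 3.58 and 5.41 for CXCL3, and by 1.16 and 5.67 for CXCL1. By the brightest probe set 4 of 6 members were at least 2-fold higher with E. coli 83972 than with DRB, where the background was 12.3% higher and 0.386% lower. This comparison reuses the same 3 arrays and adds no independent measurement.

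**Figure D3:**
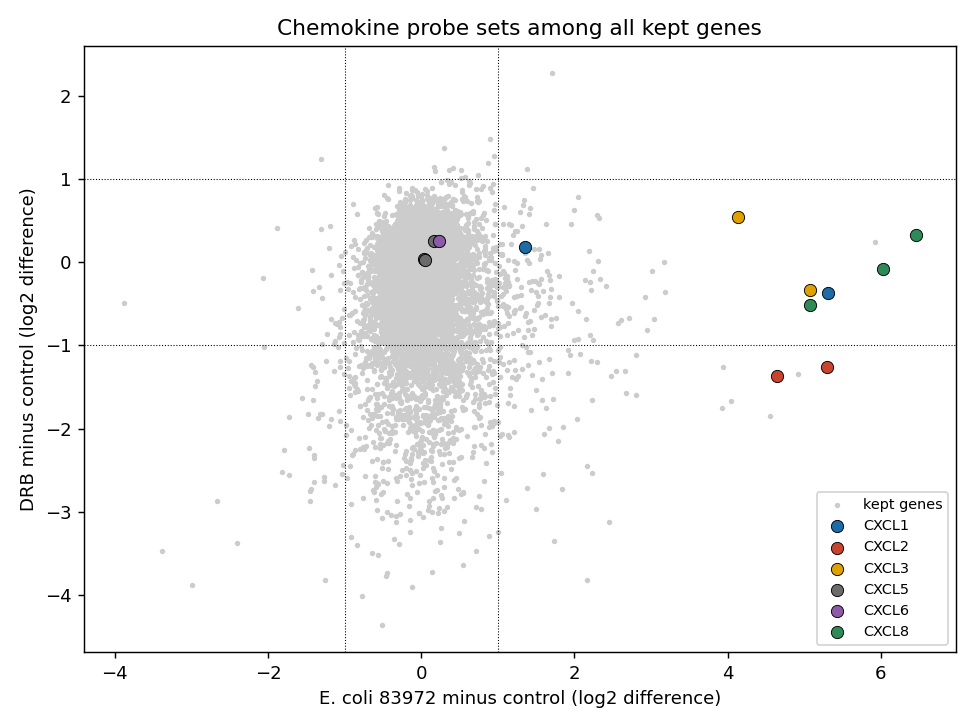
Log2 difference from control with E. coli 83972 (horizontal axis) and with DRB (vertical axis), for 11653 kept genes by their brightest probe set (grey) and for each of the 13 chemokine probe sets (coloured). Dotted lines mark 2-fold. The probe sets of CXCL2, CXCL3 and CXCL8 lie at 4.13 and beyond on the horizontal axis, those of CXCL1 at 1.35 and 5.31, and both CXCL2 points lie below the lower dotted line.

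For each member that reached the filter level, the 3 kept genes with the most similar pair of differences from control were found by Euclidean distance. This likeness rests on 3 arrays, with the control array in both differences. For CXCL2 the nearest were IL6, at a distance of 0.28, CCL2, which recruits monocytes (0.49), and the pattern recognition gene PTX3 (0.66). CXCL2 and IL6 thus differed by 4.64 and 4.92 with E. coli 83972 and by −1.37 and −1.34 with DRB. For CXCL8 they were IL6 (0.84), CXCL2 (0.96) and CCL20, a CCR6 ligand (1.14). For CXCL3 they were the signalling adaptor gene TRAF1 (1.10) and the adhesion molecule genes VCAM1 (1.29) and ICAM1 (1.31). The brighter CXCL1 probe set was nearest to PGM2L1 (0.08), CHD2 (0.12) and NFAT5 (0.16), genes with differences of 1.36, 1.47 and 1.38 with E. coli 83972. The nearest genes depend on the probe set taken. The other CXCL1 probe set differed by 5.31 with E. coli 83972 and −0.37 with DRB, close to the CXCL8 values used here (5.07 and −0.51). CXCL8 probe set 11754026_a_at, at 6.46 and 0.33, lay closer to CCL20 (5.92 and 0.25) than to IL6. The other IL6 probe set differed by 1.05 and 0.14.

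Among all kept genes 1.91% were at least 2-fold higher with E. coli 83972 and 10.2% lower with DRB, the shares to set beside each list count below. Each list count is over all its genes with a probe set, also those under the filter level. The lists were chosen with earlier results of these data known. Among 11 other CXC chemokines, 1 was at least 2-fold higher with E. coli 83972 and 0 lower, with a median difference of −0.03, the same as that of all kept genes (−0.03). The exception was CXCL10, an interferon-inducible CXCR3 ligand without the ELR motif, which read 7.01 with E. coli 83972, 4.73 with DRB and 4.71 in control. CXCL14, PF4V1 and CXCL16 differed by −0.20, 0.28 and −0.08. With DRB none of the 11 was 2-fold different, and CXCL14 was highest at 0.83. PPBP, the ELR chemokine of platelets, was below the filter level on every array. The receptors showed no comparable difference. CXCR1 differed by 0.02 and ACKR1, a scavenging receptor of chemokines, by 0.08 with E. coli 83972, and by 0.32 and 0.34 with DRB, and CXCR2 was below the filter level throughout.

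Cytokines that induce these chemokines or mobilize neutrophils had 2 of 7 measured genes at least 2-fold higher with E. coli 83972, beside 1.91% of all kept genes. None was lower, and the median was 0.54. IL6 was 30.3-fold higher by its brighter probe set (4.92) but 1.05 by the other, and IL1A, which encodes interleukin 1α, was higher by 1.14. IL1A read 5.73 with E. coli 83972 but 4.31 with DRB and 4.59 in control, under the filter level. IL1B and TNF, whose products are the textbook inducers of CXCL8, differed by 0.81 and 0.54. With DRB 1 of 7 was lower, beside 10.2% of all kept genes. It was IL6 (−1.34, and 0.14 by the other probe set), and 1 gene is too few to set the list apart.

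The NF-κB, C/EBP and AP-1 regulators had 12 of 17 genes at least 2-fold higher with E. coli 83972, beside 1.91% of all kept genes, and 0 lower. Their median was 1.22, the highest among the lists beside the chemokines themselves (2.74 over all 6). TNFAIP3, the ubiquitin-editing feedback inhibitor A20, read 11.95 with E. coli 83972, 6.76 with DRB and 8.02 in control. ATF3, a stress-induced factor of the AP-1 type, was higher by 2.92, though its 7 probe sets ranged from 0.02 to 2.92. CEBPD and CEBPB, the C/EBP factors of the acute-phase response, were higher by 1.74 (0.45 to 1.79 over 5 probe sets) and 1.38. With DRB 6 of 17 were lower, beside 10.2% of all kept genes, and 0 higher. The median of the 17 was −0.49, and CEBPD (−3.36, or 0.02 by the highest of its 5 probe sets) and CEBPB (−2.72) were lowest. TNFAIP3 was at −1.26 and −0.32 in its 2 probe sets and REL at −1.60 and −0.72. These 2 calls rest on the brightest probe set.

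Of 17 genes of bacterial sensing 4 were at least 2-fold higher with E. coli 83972, beside 1.91% of all kept genes, and 0 lower (median 0.02). They were IRAK2, a kinase of the MyD88 complex (2.68, or 0.19 by its other probe set), RIPK2, the kinase of NOD receptors (1.70), TLR1 (1.41) and the adaptor gene TICAM1 (1.09). TLR1 read 5.88 with E. coli 83972 but 4.24 with DRB and 4.47 in control, under the filter level. TICAM1 was close to the 2-fold line. TLR4, the receptor of lipopolysaccharide, named outside the rule, read 5.04 with E. coli 83972, 4.69 with DRB and 5.64 in control by its brightest probe set. Its 3 probe sets differed from control by −0.60 to 0.01 with E. coli 83972 and by −0.95 to 0.08 with DRB. Among 11 genes of message stability 1 was higher with E. coli 83972, ZFP36 (1.02). With DRB 3 were lower, beside 10.2% of all kept genes, ZFP36L2 (−2.70), ZFP36 (−2.09) and N4BP1 (−1.70). Other probe sets of the same genes read as little as −0.02 for ZFP36L2 and −0.64 for N4BP1, so these calls rest on the brightest probe set. ZFP36 and ZFP36L2 bind AU-rich elements and promote decay, and N4BP1 restrains NF-κB signalling. ZFP36L1 differed by 0.73 with E. coli 83972 and −0.38 with DRB. Its 5 probe sets ranged from 0.35 to 1.23 and from −0.38 to 0.35. On the list for neutrophil adhesion to epithelium, 1 of 5 measured genes was higher with E. coli 83972, ICAM1, by 9.06-fold (3.18). CD55, CEACAM1 and CD47 differed by 0.45, 0.20 and −0.03 by their brightest probe sets, and the 7 of CD55 ranged from 0.10 to 1.25. With DRB 0 of the 5 were 2-fold different.

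**Figure D4:**
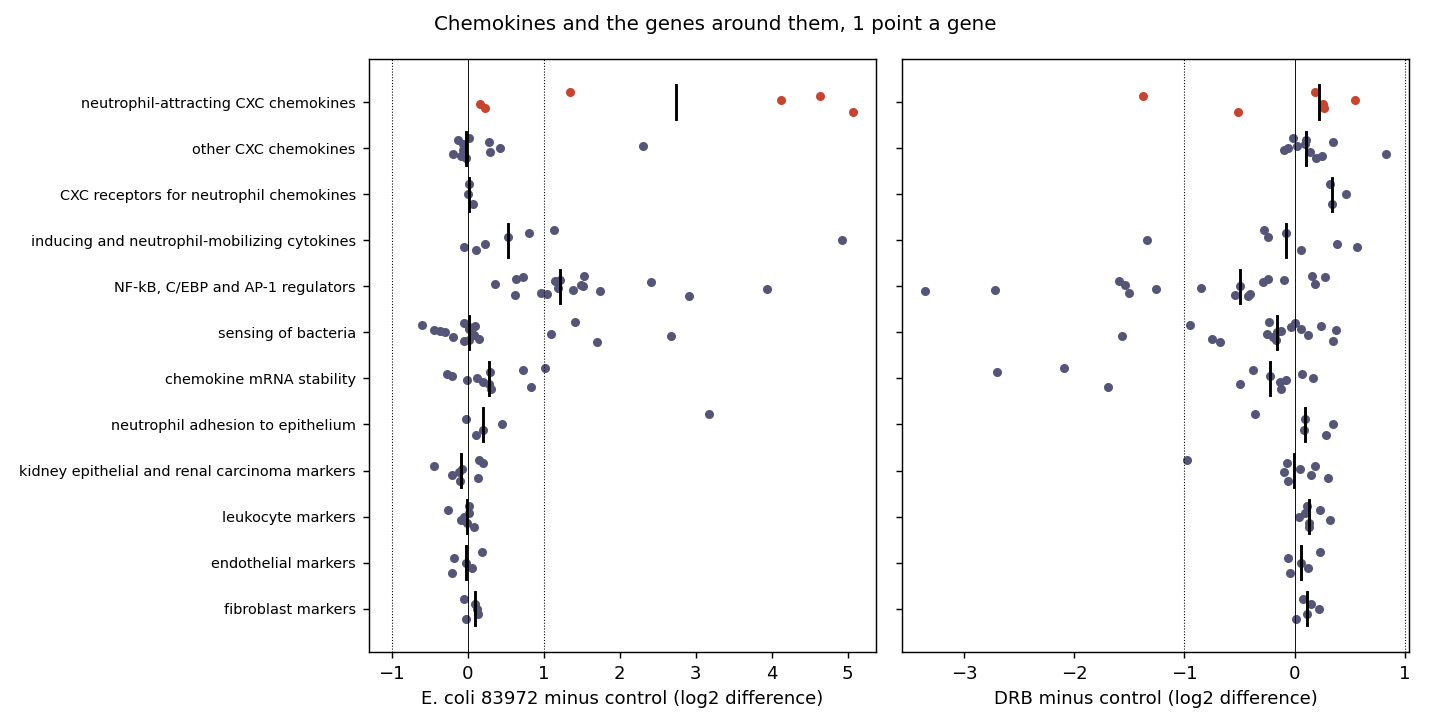
Log2 difference from control with E. coli 83972 (left) and DRB (right) for the chemokines (red) and 11 other gene lists, 1 point a gene by its brightest probe set. Black bars are list medians and dotted lines mark 2-fold. With E. coli 83972 the medians of the chemokines (2.74) and of the NF-κB, C/EBP and AP-1 regulators (1.22) lie to the right of the dotted line. With DRB the regulators reach −3.36 and the chemokines −1.37.

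Gene order on chromosome 4, from RefSeq, places the members among other genes. From CXCL8 to CXCL2 the protein-coding genes are CXCL8, CXCL6, PF4V1, CXCL1, PF4, PPBP, CXCL5, CXCL3 and CXCL2, and 6 more were taken beyond each end. Of the 15 genes in this stretch that are not members, 14 had a probe set of their own. With E. coli 83972 0 of these were at least 2-fold higher, near the background of 1.91% over kept genes. ALB, AFM, PF4, PPBP, EPGN and EREG were under the filter level on every array, where a change could hardly have been seen. PF4V1, PF4 and PPBP, which lie between members, differed by 0.28, −0.12 and 0.02, and PF4V1 was close to the filter level (4.64 to 4.98). The highest of the 14 was ANKRD17 (0.94), followed by RASSF6 (0.64), the nearest gene beyond CXCL8. MTHFD2L, a mitochondrial folate enzyme gene next to CXCL2, differed by −0.05 with E. coli 83972 and was lower with DRB (−1.46), as CXCL2 was (−1.37). It was the 1 gene of the 14, kept or not, that was 2-fold lower with DRB, a share near the background of 10.2% over kept genes. AREG, also in the stretch, was not analysed here.

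**Figure D5:**
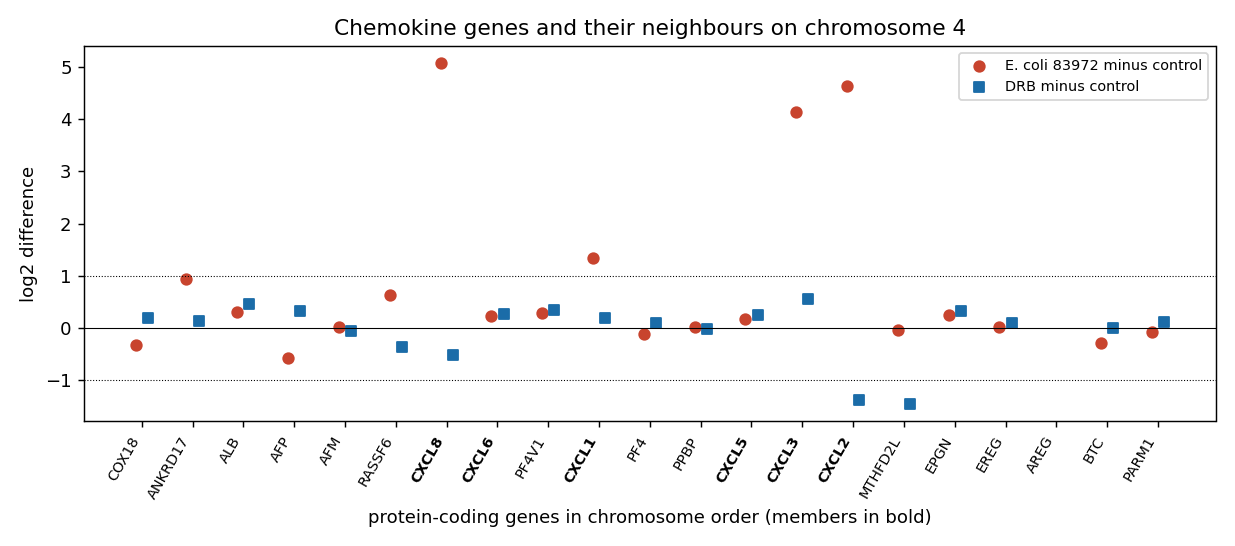
Log2 difference from control with E. coli 83972 (circles) and DRB (squares) for 21 protein-coding genes in their order along chromosome 4, members in bold, dotted lines at 2-fold. CXCL8, CXCL1, CXCL3 and CXCL2 are the genes of the stretch above the upper line, at 1.35 to 5.07, and CXCL2 and MTHFD2L the genes below the lower line with DRB.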

How the data were processed

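The values are the log2 probe-set values the authors deposited, made with RMA and Partek per the submitters' processing notes. Not given in the sources used here are their versions, the background step and how many arrays were normalized jointly. Such processing brings arrays to nearly 1 distribution, which removes shifts shared by most transcripts, and compresses dim signals. Symbols came from the platform annotation, updated through Entrez identifiers with RefSeq genes of GRCh38.p14 (45178 of 45259 probe sets with 1 gene). The 1327 probe sets listed for several genes were left unnamed. The brightest probe set by mean over the arrays stood for its gene, which was kept if any array reached 4.88. A call is a 2-fold difference between single arrays. The calculation was run on simulated arrays with large known changes and small noise, which checks the code and not how reliable calls between single arrays are. Python 3.11.15, pandas 2.3.3, statsmodels 0.14.6 (loess) and Biopython 1.88 (promoter alignments) were used. The members and the 12 gene lists were chosen with earlier results of these data known. Named genes are all members, up to 4 kept genes of each list with the largest difference in either treated array, the 3 nearest genes of each kept member, and chromosomal neighbours. Alternatives were 10 settings listed in advance and 1 added later. Sequences are from RefSeq, and the planned comparison of protein sequences was not run.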

Additional observations from a re-analysis of the deposited data

Results flagged for a closer look

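A probe set that names both CXCL1 and CXCL2 (11763250_x_at) took no part in the comparisons, and its signal was above the control array. It read 5.83 with E. coli 83972, 3.91 with DRB and 3.85 in control, a log2 difference of 1.98 with E. coli 83972 and 0.05 with DRB. The other probe set shared with a second gene, named for CXCL5 and GLYR1, read 6.63 with E. coli 83972, 7.33 with DRB and 6.93 in control.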

How the results depend on the processing

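All 3 labels carry the same experiment number (2). With 1 array a group no paired analysis was possible and no array could be left out. For E. coli 83972 against control, the count of members at least 2-fold higher (4 of 6) became 2 of the 4 members with plain-suffix probe sets and 3 of 6 at 3-fold, where CXCL1 was lost. The median of the members (2.74) became 3.96 with the mean over probe sets, 2.44 with plain-suffix probe sets, 2.49 with centring on hybridization spike-ins and 5.19 with the dimmest probe set, a setting added after the CXCL1 probe sets were seen to differ. CXCL1, CXCL2, CXCL3 and CXCL8 were at least 2-fold higher in all 26 values they had under the alternatives that can change a gene's difference (1.09 to 6.46), which leaves out the filters and the folds for a call. CXCL5 and CXCL6 turned to −0.09 and −0.02 with hybridization centring. For DRB against control, the count lower (1 of 6) became 2 with poly-A centring and 0 at 3-fold, and the median (0.22) became −0.14 with plain-suffix probe sets, −0.43 with poly-A centring and −0.15 with the dimmest probe set. For E. coli 83972 against DRB, the count (4 of 6) became 2 of 4 with plain-suffix probe sets and 3 of 6 at 3-fold, and the median (2.37) became 3.96 with the mean over probe sets, 2.89 with poly-A centring and 5.54 with the dimmest. The plain-suffix setting has fewer members, since CXCL1 and CXCL8 have no such probe set. The other changes follow from the probe set, the shift or the fold taken. With E. coli 83972 against control, the main median lies between CXCL1 (1.35) and CXCL3 (4.13), so it moves with the probe sets taken for them. Why probe sets of 1 gene differ was not tested. Centring moves all genes by −0.14 (poly-A) and −0.25 (hybridization) with E. coli 83972, and by −0.65 and −0.21 with DRB. The background of 222 higher genes with E. coli 83972 became 605 at 1.5-fold, 83 at 3-fold, 141 with hybridization centring, 82 with plain-suffix and 137 with the dimmest probe sets. The 1185 lower with DRB became 2106 at 1.5-fold, 503 at 3-fold, 2880 with poly-A centring, 698 with the mean, 401 with plain-suffix and 531 with the dimmest probe sets. The 1432 genes higher with E. coli 83972 than with DRB became 2254, 682, 2553, 914, 497 and 666 in the same order of settings. Fewer genes were kept with the mean (9861), plain-suffix (3459) and dimmest (6582) probe sets than in the main setting (11653), so the shares moved less or the other way. They were 2.37% with plain-suffix and 2.08% with the dimmest probe sets for higher with E. coli 83972 (1.91%), and 7.08%, 11.6% and 8.07% with the mean, plain-suffix and dimmest for lower with DRB (10.2%). For higher with E. coli 83972 than with DRB (12.3%) they were 9.27%, 14.4% and 10.1%. Signal near the bottom of the scale limits CXCL5 and CXCL6, and signal near the top of the scale may limit CXCL8.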

Other observations

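The run GGAATTTCC also lay in the promoter windows of 35 kept genes that are not members, and 7 of these (20.0%) were at least 2-fold higher with E. coli 83972, beside 1.91% of all kept genes. These 7, named after their values were seen, were ICAM1 (3.18), NFKBIA, the inhibitor IκBα (2.41), CXCL10 (2.30), the costimulatory receptor gene TNFRSF9 (2.00), the NF-κB subunit genes NFKB1 (1.54) and REL (1.16), and the atypical inhibitor gene NFKBIZ (1.52). With DRB they went both ways, REL at −1.60 and TNFRSF9 at 0.63. By its other probe set REL was at 0.90 with E. coli 83972 and −0.72 with DRB. The median of the 35 with E. coli 83972 was 0.24, and most of them, such as COL7A1 (−0.41) and STXBP3 (−0.13), were not 2-fold different. The run was searched for after it was seen in windows of the members, and with the members left out 3.95% of 177 higher genes with a window held the run, against 0.366% of 9559 kept genes with a window. A gene could be kept through its E. coli 83972 value alone, as CXCL10 was (7.01, against 4.73 with DRB and 4.71 in control). Genes kept in this way are more likely to count as higher, which was not corrected for in these shares. The shares were not tested, and a match in letters does not show that a factor binds there.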
